A study of Mus musculus with 4 samples.

Results

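Regions labelled only as coding exon in a table of m6A-marked RNA from mouse embryonic stem cells numbered 1209 of 6697 listed regions (18.1%), under 793 genes. A region was taken, once, where every label it carried over all of its rows was CDS-Exon, so regions that also touched an intron, an untranslated region or sequence upstream of a gene were left out. The choice used the annotation alone and no read count.

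N6-methyladenosine (m6A) is a methyl mark that a nuclear enzyme complex places on adenosines of messenger RNA, mostly in a short sequence built around GGAC. Reader proteins bind the mark and influence splicing, export, translation and decay of the RNA. Marks are known to gather near stop codons and inside unusually long internal exons, and a coding-exon region can lie in such an exon or shortly before a stop codon. In embryonic stem cells the mark is known for shortening the life of transcripts of pluripotency and lineage genes.

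The study compared Gsk-3 double-knockout (DKO) cells, which lack both Gsk-3 kinases, with wild-type (WT) cells, both of the E14K line. The 2 groups used here were m6A immunoprecipitates of DKO cells and of WT cells, with 1 library each. Both were grown without feeder cells and were deprived for 14 days of LIF (leukaemia inhibitory factor), which keeps such cells undifferentiated, so the label embryonic stem cell describes their origin. Total mRNA inputs of both genotypes also belong to the study, but the table has 0 input columns, and a difference in m6A cannot be told apart from a difference in the level of the RNA. The labels do not say whether a genotype was 1 clone.

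With 1 library per group no test between genotypes was possible, and every value below compares these 2 libraries. Counts are reads as deposited. "Fold lower" is the WT count over the DKO count times 0.825, the constant in the authors' own ratio, and log2 values are DKO over WT on the same scale, after adding 0.5 to each count (the pseudocount). With 0 DKO reads a fold can only be bounded from below, and 3 reads were put in place of 0. The exact 95% interval of 0 reads reaches 3.69 reads, so the exact lower limit of a fold is smaller than this bound. Intervals are exact 95% intervals and cover counting error only, since PCR reads without molecular identifiers are not independent molecules. Library totals are not in the table, so the depth is unknown. Of the stem cell genes Pou5f1, Nanog, Sox2, Klf4, Esrrb and Zfp42, Pou5f1 (6 DKO reads, 55 WT reads) and Esrrb (12 and 187 over 2 regions) had listed regions, none of them among the coding-exon regions. Gsk3a and Gsk3b had no coding-exon region, and of the pair only Gsk3b had a listed region, in its 3'UTR (3 DKO reads, 78 WT reads), so the deletion could not be checked in coding exons.

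Few bases of these regions could be read, because only windows around gene starts were at hand (RefSeq, GRCm38.p6). These windows overlapped 8 of the regions, in 7 genes. The letters GGACT, the commonest form of the m6A consensus, were searched on the strand of the gene, as were the 2 variants in which the last letter is replaced by adenine or by cytosine, with no overlap possible between them. A match was present in 2 of the 8 overlaps, and 30 bases around each are shown because they are the only matches in the readable parts of coding-exon regions. Capitals mark the match.

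Arl4c (chr1:88702187-88702216, minus strand): ggcctgtgggcgGGACTagaggggcggggc
Fignl2 (chr15:101054375-101054404, minus strand): tgaagatgcactGGACAccggaacacgccc

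Arl4c, a small GTPase gene, had 4 DKO reads and 48 WT reads in its region (9.90-fold lower). All 259 bases of that region could be read, and 54.4% of all RefSeq windows held a match in the same stretch. Its deposited distance from the transcription start was -106 bases, so the coding-exon label and the RefSeq start disagree there. With that distance counted to the middle of the region, the match lay upstream of the start. RNA begun at that start would not hold the match. This Arl4c region was the only one of the 1209 with a negative distance. In Fignl2 the readable part was 59 of 485 bases, where 17.6% of windows held a match, and the region had 16 DKO reads and 229 WT reads (11.8-fold lower). No match was present in the readable parts of Mical3 (238 of 259 bases in 1 region, 48 of 256 in the other), Ier5l (165 of 167), Smtn (146 of 155), Sox21 (115 of 242) or Ier5 (40 of 176). A match is a description of letters, and its absence from a part of a region says nothing about the rest.

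Every coding-exon region had fewer reads in DKO than in WT. DKO counts ran from 0 to 280 (median 2) and WT counts from 15 to 3311 (median 56), and they summed to 7457 in DKO and 118703 in WT, a 13.1-fold difference (12.8 to 13.4). The median log2 value was -3.99, with quartiles of -5.50 and -3.12. DKO had no reads in 354 regions (29.3%, 26.7 to 31.9) and 1 to 3 reads in 375. Folds were 3.77 to 298 in the 855 regions that had DKO reads (median 12.4). At least 10-fold lower were 724 regions (59.9%, where 52.5% of all listed regions were), and at least 4-fold lower were 1208 of 1209 (99.9% of all listed regions). At 0 DKO reads, reaching 10-fold depends on the WT count alone, whose median was 56 here and 43 over all listed regions. The 2 shares are therefore no measure of a larger loss in coding exons, and summed counts gave 17.5-fold over all listed regions. Because the listed regions all run in 1 direction, the direction says nothing about coding exons.

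**Figure D1:**
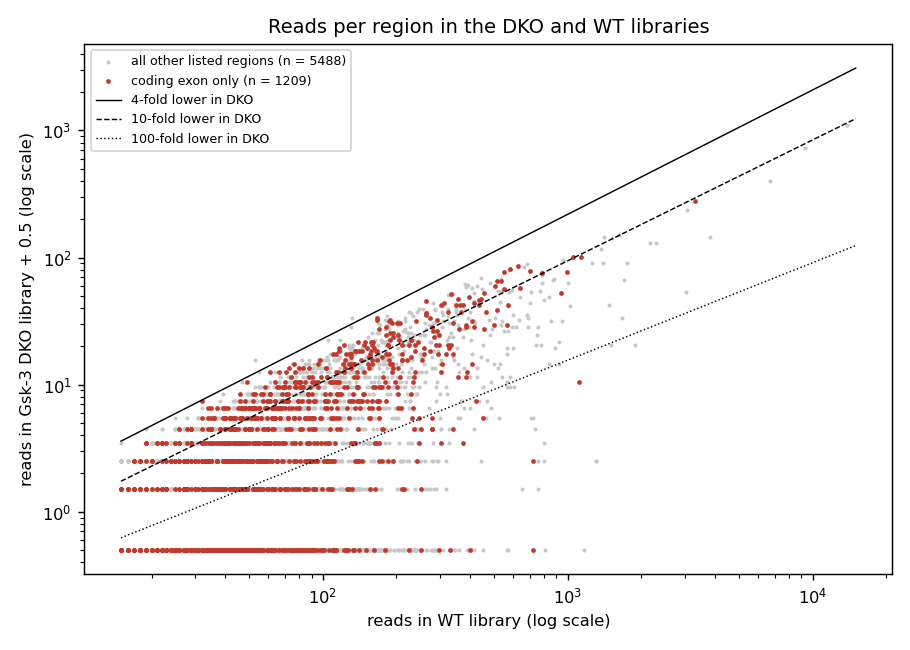
Reads per region in the Gsk-3 DKO library (vertical axis, 0.5 added, log scale) against the WT library (horizontal axis, log scale). Red points are the 1209 coding-exon regions and grey points the 5488 other listed regions; lines mark 4-fold, 10-fold and 100-fold lower in DKO. Most coding-exon regions with DKO reads lie around the 10-fold line, and the lowest row holds the 354 regions with 0 DKO reads.

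The largest coding-exon signal came from a cytoskeletal linker gene. Plec, which encodes plectin, a linker of intermediate filaments to actin and to adhesion sites, had 280 DKO reads and 3311 WT reads in a region of 1044 bases on chromosome 15 (76176301 to 76177344), 9.75-fold lower (8.63 to 11.1). That region had the highest count of both libraries and the highest WT density, 3.17 reads per base against a median of 0.265. Eppk1, which encodes epiplakin, a plectin relative, had 101 and 1055 in its deepest region (8.62-fold). Ckap4, an endoplasmic reticulum membrane protein, had 86 and 629 (6.03-fold, 4.81 to 7.65). The kinase anchor gene Akap2 had 78 and 700 (7.40-fold). Ier2, an immediate early gene, had 81 DKO reads and 579 WT reads (5.90-fold). Ahdc1, also among the 10 genes with the highest counts of both libraries, had 52 and 938 (14.9-fold). These genes are named for their high counts, so that DKO reads are present in them says nothing more.

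Other deep regions had few DKO reads. Nes, the progenitor filament nestin, held the longest region, 1846 bases on chromosome 3 (87977731 to 87979576), with 10 DKO reads and 1110 WT reads (91.6-fold, 49.6 to 191). Col8a1, a short-chain collagen, had 2 and 722 in 934 bases on chromosome 16 (57627851 to 57628784), 298-fold lower with an interval of 82.1 to 2463. Nodal, a signal of early patterning, had 1 and 164 (135-fold, 23.9 to 5375). Vgf, a neuropeptide precursor, had 3 and 303 over 1167 bases (83.3-fold, 28.2 to 406). The Plec and Nes intervals do not overlap. Both regions were named for extreme counts or folds in these same libraries, so this describes 2 chosen regions and is no test of a difference.

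Several regions with 0 DKO reads were deep in WT. Irs1, which couples the insulin receptor to PI3K, had 0 DKO reads and 401 WT reads over 899 bases (bound 110-fold, exact lower limit 89.2-fold). With 0 DKO reads each, the WT counts were as follows. The protease gene Prss23 had 331, the sulfotransferase gene Chst12 298, the potassium channel gene Kcnn3 251 and the transporter gene Abca13 226. Spred3, an inhibitor of Ras signalling, had 162, the muscle actin nucleator gene Lmod1 141, the kinase gene Nuak1 134 and the thrombomodulin gene Thbd 127. Bounds for these last 4 genes ran from 44.5-fold down to 34.9-fold, and the order of these 9 genes follows the WT count alone. The mean log2 value over both coding-exon regions of Chst12 was -6.39, against -8.94 for the region given.

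Where at least 10 DKO reads allowed a direct ratio, and with only the deepest region of each gene taken, the smallest folds belonged to the stress response factor gene Atf4 (10 DKO reads and 49 WT reads, 4.04-fold, 2.02 to 8.95) and the linker gene Dst (33 and 166, 4.15-fold). Thrap3, a splicing-associated gene, had 32 and 167 (4.304-fold, 2.94 to 6.50). Spen, Pcdh1, Pml, Lzts2, Sh3pxd2b, Lemd3 and Mllt4 had folds between 4.48 and 5.03. At the large end, again with the deepest region of each gene, stood after Nes the podosome scaffold gene Sh3pxd2a with 12 and 388 (26.7-fold, 15.1 to 52.1) and the heparan sulfate enzyme gene Hs6st1 with 11 and 355 (26.6-fold). Nog, the BMP antagonist noggin, had 14 and 406 (23.9-fold, 14.1 to 44.1). A Plec region that is not its deepest had 11 and 386 (28.9-fold, 16.0 to 58.5).

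Regions without DKO reads were more frequent where WT reads were few. Their share was 55.7% (48.6 to 62.7) in the 201 coding-exon regions with 15 to 29 WT reads, 37.0% in the 433 with 30 to 59, 21.4% in the 313 with 60 or more but under 120, and 5.73% (3.24 to 9.27) in the 262 with 120 or more. Summed counts gave folds of 22.9, 18.05, 15.1 and 11.4 in these 4 groups, in the same order. The effect of the selection of listed regions on this trend was not tested. By density in WT, 52.5% of the 303 sparsest regions and 5.30% of the 302 densest had no DKO reads. By length, the share was 35.1% at 150 to 199 bases and 9.52% in the 42 regions of 500 bases or more, whose median WT count was 327 against 42, while median log2 values lay between -4.14 and -3.92 in all 4 length groups.

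Set beside the other annotation classes, 50.5% of all listed regions and 55.2% of the regions outside this class had no DKO reads, against the 29.3% above. A pair of classes that also hold coding exon lay close to the coding-exon share, with 32.6% (27.4 to 38.1) in regions crossing coding exon and 3'UTR, and 29.3% (21.9 to 37.6) in the 140 regions of coding exon and other labels. The share was 40.2% (36.2 to 44.2) in 3'UTR regions without coding sequence, 42.6% (39.6 to 45.7) in regions crossing coding exon and intron, and 70.9% (68.1 to 73.6) in regions in introns only. Weighted to the WT counts of the coding-exon regions, the last 3 shares were 33.5%, 37.0% and 62.6%, against 29.3%, so each lay closer to the coding-exon share than before weighting. Coding-exon regions had a median length of 202 bases, against 189 in all other regions, and 16.4% of them exceeded 300 bases, against 8.09%. Regions crossing coding exon and 3'UTR were longer, with a median of 224 bases and 22.7% over 300. Regions are not replicates, and no test was made of these differences.

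**Figure D2:**
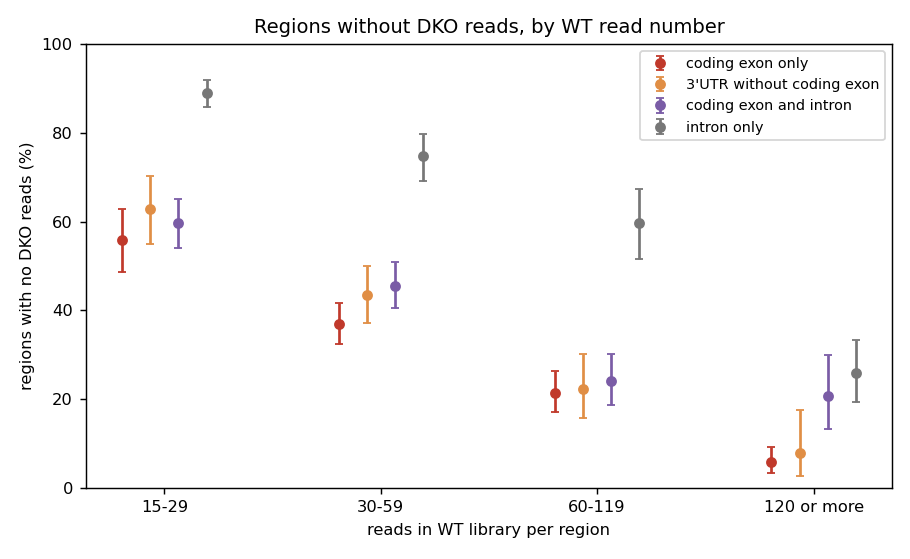
Percent of regions with no DKO reads (vertical axis) by the number of WT reads in the region (horizontal axis) for 4 annotation classes; bars are exact 95% intervals over regions. Coding-exon regions (red) go from 55.7% to 5.73%, close to 3'UTR regions, and intron-only regions (grey) go from 89.1% to 25.8%.

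Of the 793 genes, 337 (42.5%) also had a listed region of another class, which allowed a comparison within genes. In the 78 genes with both coding-exon and intron-only regions, counts summed per gene gave DKO and WT totals of 1447 and 19401 in coding exons (11.1-fold lower) and of 80 and 6365 in introns (65.6-fold lower). The coding-exon log2 value was the higher one in 53 of these genes and the lower in 25. Without DKO reads were 27 of the 78 genes in coding exons and 56 in introns, where log2 values depend on the pseudocount. Median WT counts per gene were 57.5 in coding exons and 41 in introns, and the part of read number was not tested. In the 90 genes with 3'UTR regions the folds were 11.8 in coding exons and 19.3 in the 3'UTR, and the coding-exon value was higher in 52 and lower in 37. The median WT count per gene was larger in coding exons (114) than in the 3'UTR (54), beside 18 and 38 of the 90 genes without DKO reads, and the part of read number in this difference was not tested. The difference was smaller in the 142 genes with regions crossing coding exon and intron, at 12.1-fold in coding exons and 14.6-fold across the border, with the coding-exon value higher in 77 genes and lower in 65.

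Among the coding-exon regions that could be placed, most lay in the later part of genes. Of the 1209 regions, 906 (74.9%) could be placed on a gene span (introns included). Of these, 412 (45.5%) lay in the last 20% of the span and 107 (11.8%) in the first 20%. Shares for other listed regions and for annotated coding exons at large were not computed, so no excess can be read from these values. The share without DKO reads was 28.9% in the last 20% and 28.97% in the first 20%, and ran from 24.0% to 34.0% in the parts between, with overlapping intervals. Regions within 1000 bases of the transcription start numbered 137 (11.3%). Chromosome 15, which carries Plec and Eppk1, had the largest part of its listed regions in this class (90 of 313, 28.8%), and chromosome 6 the smallest (31 of 292, 10.6%).

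A single coding-exon region was listed for 559 genes, 145 genes had 2 such regions, and 89 had 3 or more, with 360 such regions among them. Within those 89 genes the log2 values spanned a median of 2.06, with spans from 0.15 to 5.73, where all coding-exon regions spanned 8.38. Where a region has 0 DKO reads the span depends on the pseudocount, and the median span was 1.40 with a pseudocount of 2. DKO reads were present in every region of 39 of these genes and in no region of 8, and 42 had regions of both kinds. Neighbouring regions overlapped by up to 35 bases in 8 pairs, which therefore may share reads.

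Plec had 18 coding-exon regions, with 5 to 280 DKO reads and 67 to 3311 WT reads, and DKO reads in each. They summed to 946 and 10553 (9.20-fold lower), and their log2 values ran from -4.79 to -2.58. Bcl9l, a co-activator of Wnt target genes, was more even: its 6 regions had 10 to 42 DKO reads and 98 to 435 WT reads, with log2 values from -3.80 to -2.82. Tnks1bp1, a binding partner of tankyrase, had 8 regions with 2 to 20 DKO reads and 82 to 299 WT reads (14.4-fold over their sum). Dsp, the desmosomal linker desmoplakin, had 7 regions with 0 to 7 DKO reads and 37 to 246 WT reads (38.0-fold). Dsp and Plec are relatives in the plakin family, and the highest Dsp value (-4.07) lay below 17 of the 18 Plec values. That Dsp region had 7 and 152 (17.9-fold, 8.48 to 45.3), an interval that overlaps that of the deepest Plec region (8.63 to 11.1). The other Dsp regions had 0 to 3 DKO reads, and the contrast was chosen with the values in view.

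Regions of Mll2 (now Kmt2d), a histone H3 lysine 4 methyltransferase, differed among themselves. On chromosome 15 it had 18 DKO reads and 116 WT reads at 98840151 to 98840321 (5.32-fold lower) and 2 and 174 at 98862054 to 98862327 (71.8-fold, 19.6 to 597). Prrc2b likewise had 18 and 137 in 1 region (6.28-fold) and 4 and 278 in another (57.3-fold, 22.1 to 212). Ahdc1, a DNA-binding protein gene, had 52 and 938 in a region of 1272 bases and 0 DKO reads in 3 of its other 8 regions, the deepest of them with 83 WT reads. These genes were taken for their number of regions, and the contrasts within them were chosen with the values in view.

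**Figure D3:**
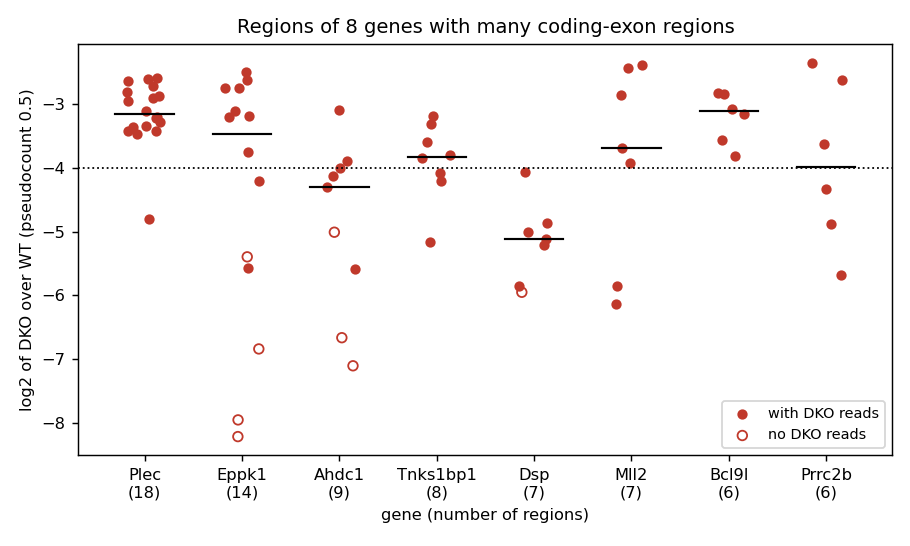
Log2 of DKO over WT (vertical axis, pseudocount 0.5) for each coding-exon region of 8 genes with many such regions (those with most, passing over 1 predicted gene), with the number of regions under each name; open circles have no DKO reads, bars are medians, and the dotted line is the median of all coding-exon regions (-3.99). Bcl9l and all but 1 of the Plec regions form tight groups near -3, and Eppk1 spreads from -8.22 to -2.49.

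Eppk1 had the widest spread, 5.73 on the log2 scale, and its DKO counts differed by position. The low end of that spread was a region with 0 DKO reads and 180 WT reads, so its size depends on the pseudocount. The 7 regions farthest from the transcription start (distances of 14376 to 17210 bases) had 5 to 101 DKO reads and 89 to 1055 WT reads, 327 and 3078 in sum (7.76-fold lower, 6.92 to 8.73). The 7 nearest (7993 to 13549 bases) had 0 to 2 DKO reads and 16 to 180 WT reads, 4 and 617 in sum (127-fold, 49.4 to 468), with 0 DKO reads in 4. Log2 values of the 2 sets overlapped, as a near region with 1 and 16 had -3.18 and a far region with 5 and 89 had -3.75. The split was made after the values were seen. Density in WT moved with it, from 0.533 to 2.23 reads per base in the far set and 0.0982 to 0.413 in the near set. Epiplakin is built of plakin repeat domains. How reads matching several repeats were placed is not given in the sources used here, so the split of reads between repeats is uncertain.

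**Figure D4:**
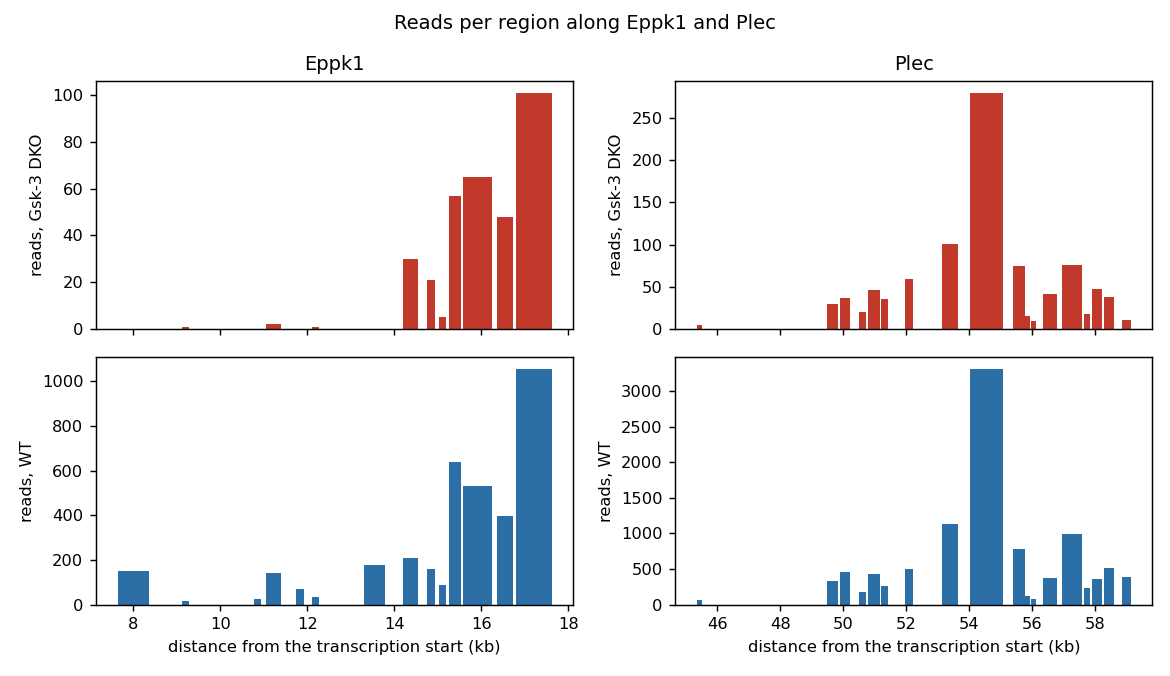
Reads per coding-exon region in DKO (upper panels) and WT (lower panels) by distance from the transcription start, for Eppk1 (left) and Plec (right); each bar is a region and its width the region's length, and panels have separate scales. In Eppk1, DKO reads are almost all beyond 14 kb, and WT reads are present on both sides; in Plec the profiles of both libraries have a peak in the same region, with 280 and 3311 reads.

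Gene lists, put together with earlier results of these data in view, were counted over the coding-exon regions, beside a median of -3.99 and 29.3% without DKO reads over all of them. RNA processing genes, 13 of 49 with 25 regions, had a median of -3.42, and 4 regions (16.0%) had no DKO reads. In this list the m6A writer subunits Zc3h13, Rbm15 and Rbm15b had DKO reads. Zc3h13 had 8 DKO reads and 203 WT reads in its deepest region (20.9-fold lower, 10.4 to 49.1). In their deepest regions Rbm15 had 22 and 230 (8.62-fold, 5.56 to 14.0) and Rbm15b had 27 and 359 (10.97-fold, 7.41 to 16.9). The reader gene Ythdf1 had 19 and 151 (6.55-fold). The erasers Fto and Alkbh5 and the writer subunit Wtap had 0 DKO reads, beside 60 WT reads for Fto, 21 for Wtap and 18 for Alkbh5. Their bounds (16.5-fold, 5.77-fold and 4.95-fold) cannot be set above or below those of the other subunits.

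Chromatin regulators, 20 of 49 genes with 35 regions, had a median of -3.69 and 7 regions without DKO reads. The acetyltransferase gene Ep300 had the smallest fold of any coding-exon region, with 7 DKO reads and 32 WT reads (3.77-fold), and 9 and 78 in another. The chromatin remodeler gene Chd6 had 2 and 169 (69.7-fold, 19.0 to 580) beside 5 and 42. Transcription factors, 16 of 60 with 26 regions, had a median of -3.68. Zfhx3 had 51 and 334 in 1 region (5.40-fold, 4.01 to 7.40) and 0 against 122 in another (bound 33.5-fold, exact lower limit 26.9-fold). The growth regulators Myc and Mycn had 6 and 233 (32.03-fold, 14.5 to 88.2) and 3 and 169 (46.5-fold, 15.6 to 228). Sox4 had 4 and 175 (36.1-fold, 13.8 to 134).

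In the list of the Wnt pathway, which Gsk-3 restrains, 7 of 43 genes had 18 regions with a median of -3.70 and 4 without DKO reads. The receptor gene Fzd7 had 5 regions, from 15 DKO and 97 WT reads (5.33-fold) to 1 and 78 (64.3-fold, 11.2 to 2573). Fzd2 had 7 and 112, and 0 and 56. Apc, a scaffold of the complex that holds β-catenin low, had 2 and 65, and 0 and 25. In the insulin, PI3K and mTOR list, 6 of 35 genes had 7 regions with a median of -2.99 (-4.22 with 1 region per gene), although the Irs1 region had a log2 value of -9.37. The FOXO genes Foxo1 (5 and 47, 6 and 46) and Foxo3 (13 and 80) had folds between 5.08 and 7.75. Tsc1, an inhibitor of mTOR, had 1 and 93 (76.7-fold, 13.4 to 3062).

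Receptors and ligands of the Notch, Nodal and growth factor list had the lowest median of the lists with 3 or more regions (-6.50, 7 genes of 39 with 1 region each), and -4.58 with a pseudocount of 2. Tgfbr2 had 0 DKO reads and 106 WT reads, Notch2 0 and 57, Notch1 0 and 56, and the LIF receptor gene Lifr 1 and 67, while Lefty2 had 5 and 46 (7.59-fold). Axon guidance genes, 4 of 44 with 6 regions, had a median of -5.04 (-3.58 with a pseudocount of 2) and 4 regions without DKO reads. Cytoskeletal linkers, 14 of 32 with 51 regions, had a median of -4.79 (-3.38 at or above the median mean count of all listed regions, where all coding-exon regions had -3.79). Of the 18 Plec regions, 17 lay above that median and the other was the median itself, while all 4 regions of Lmod1 and all 4 of Nes lay below it. All 4 Lmod1 regions and 2 of the Nes regions had 0 DKO reads, so their log2 values depend only on the WT count and the pseudocount. Cadherins and adhesion receptors, 7 of 28 with 11 regions, had a median of -3.62, with Fat1 from 2 and 105 (43.3-fold, 11.7 to 362) to 8 and 68 (7.01-fold). Ubiquitin ligases and proteases, 5 of 31 with 6 regions, had 0 regions without DKO reads and a median of -3.29.

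Basement membrane genes, 5 of 21 with 7 regions, had a median of -4.03. The laminin chain gene Lamc1 had 65 DKO reads and 515 WT reads (6.53-fold lower, 5.04 to 8.59) and 14 and 96, while Lama5 had 0 and 62. Of 25 fibrillar and matricellular genes, Fn1 alone had a coding-exon region, with 0 and 36.

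**Figure D5:**
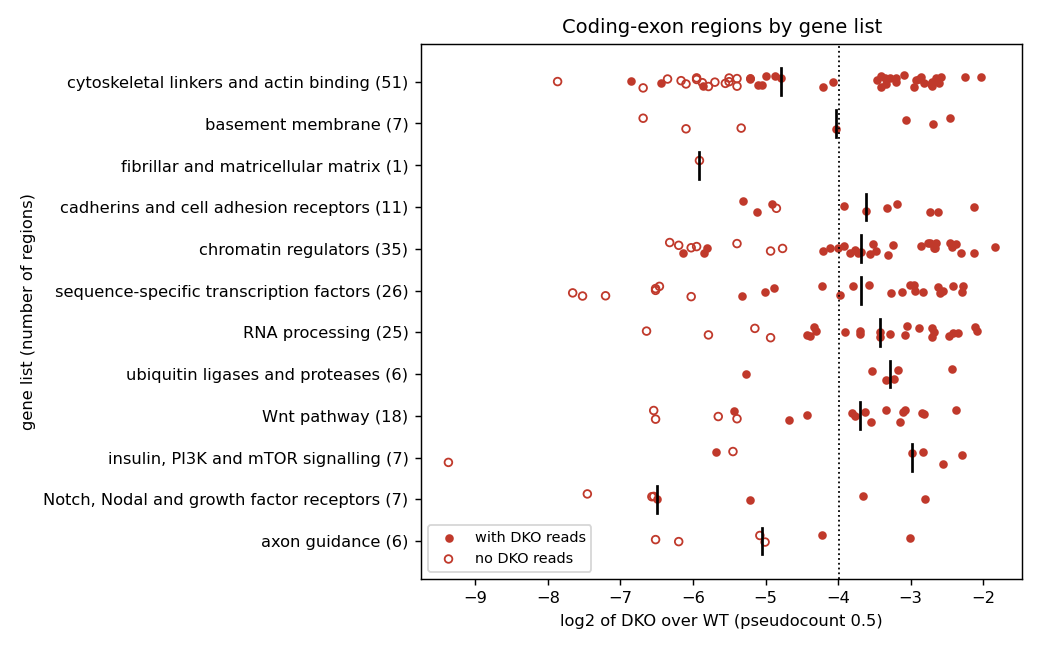
Log2 of DKO over WT (horizontal axis, pseudocount 0.5) of each coding-exon region in the 12 gene lists (rows, with the number of regions); filled points have DKO reads, open circles have none, bars are list medians and the dotted line is the median of all coding-exon regions (-3.99). The Notch, Nodal and growth factor list lies farthest left among lists of several regions (-6.50) and the insulin list farthest right (-2.99; -4.22 with 1 region per gene).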

How the data were processed

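The authors deposited 1 table of regions with gene annotation. Bowtie2, DESeq and the build mm9 appear, with no role, in the submitters' processing notes. No source used here gives the peak caller, the filter on regions or any adjustment for input. The deposited counts are whole reads per region and genotype. Their columns name the genotype and not the library, and were matched to the m6A libraries, whose titles carry the assay's name, so a count corrected for input cannot be told apart. The deposited ratio is the WT count over the DKO count times a constant, blank at 0 DKO reads. The deposited read density is a signal, the WT count over region length (end minus start plus 1).

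Of the 1209 regions, 1204 had a gene identifier in RefSeq GRCm38.p6 and all 1204 lay within 5000 bases of that gene, and for 713 of 908 (78.5%) the deposited distance to the transcription start was that of a GRCm38 start to within 1 base. Coordinates are therefore read as GRCm38 and not mm9, and are printed as deposited.

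Medians, shares, bounds and exact intervals were computed with Python 3.11.15, pandas 2.3.3, numpy 2.4.6 and scipy 1.17.1, and the script was tested on simulated counts. Genes of a list were matched by RefSeq gene identifier. The regions, lists and rules were chosen with earlier results of these data known. Named genes were 1 region per gene, the one with the highest mean count, passing over predicted genes: those with the highest counts, highest density, greatest length, most regions, the extremes of fold at 10 or more DKO reads, the deepest without DKO reads, up to 4 per list, and the m6A enzymes. One gene that this rule names is not reported here. Further regions of those genes, and other list members given with values, were chosen with their values in view. The planned search for GGACT over all regions was not run, since only windows around gene starts were used here.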

Additional observations from a re-analysis of the deposited data

How the results depend on the processing

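No paired analysis was possible because each group has 1 library. The median log2 value of the coding-exon regions (-3.99) was -3.79 at or above the median mean count of all listed regions, -3.37 with a pseudocount of 2, -4.27 without the authors' constant and -0.23 with a median-ratio factor. At or above that mean count, the share without DKO reads (29.3%) was 16.1%, the median length (202 bases) 223, the median WT density (0.265) 0.368, the fold of summed counts (13.1) 12.4, and the difference in share from introns (-41.6 percentage points) -32.5. The fold of summed counts was 13.6 with 1 region per gene, 15.9 without the constant and 0.965 with the median-ratio factor, under which 5 regions in place of 724 were at least 10-fold lower. Regions of 300 bases or less had a median length of 188 and density of 0.251, by construction. The factor centres regions that have DKO reads and so says nothing of direction. It put above 0 the medians of the lists of adhesion receptors (0.15), chromatin regulators (0.075), transcription factors (0.083), RNA processing (0.34), ubiquitin enzymes (0.48), Wnt (0.064) and insulin signalling (0.78). For the other changes the cause was not tested. Of 368 alternatives for named genes, 353 stayed within counting error. At 0 DKO reads that interval has no upper end for the fold, and at 1 to 3 reads it is wide, so this count says little there. Irs1, for example, went from -9.37 to -7.38 with a pseudocount of 2 and was counted as unmoved. Requiring 1 gene per region, or no blank label, moved no value beyond counting error. What depth limits is the ratio at 0 to 3 DKO reads, which is 729 of the 1209 regions.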
